A study of Mus musculus with 8 samples.

Results

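The Toll-like receptors *Tlr1* to *Tlr7*, the co-receptors *Cd14* and *Ly96*, and the adaptor *Myd88* were followed in the livers of mice that lack *Usp39* in hepatocytes. These 10 genes were chosen by name, as the entries of the deposited count and FPKM table that carry their symbols, out of 55385 gene identifiers in the table. Each symbol matched 1 identifier, and all 10 were among the 14340 genes tested, for which no fewer than 4 of the 8 mice had to reach an FPKM of 0.5 (counted fragments scaled by exon length and library total). *Tlr6* reached that level in 1 control and 3 *Usp39*-HKO mice, and the other 9 genes reached it in all 8.

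*Usp39* encodes a component of the spliceosome. Liver RNA of 4 *Usp39*-HKO mice, in which a Cre recombinase driven by the albumin promoter removed the floxed exon 2 of *Usp39*, was compared with that of 4 control littermates that the labels call wild type. All 8 were males on the C57BL/6J background, taken at 5 weeks of age after a fast of 16 h, and each liver gave 1 library. Whether the controls carried the floxed allele or the Cre transgene is not given in the sources used here. The albumin promoter is active in hepatocytes, and the libraries hold RNA of all cells of the liver, including Kupffer cells, whose lineage does not express albumin. Recombination of *Usp39* in each cell type was not measured here.

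Toll-like receptors recognise conserved microbial molecules and signal through adaptors with a TIR domain, of which MYD88 serves all the receptors measured here except TLR3. TLR2 pairs with TLR1 or TLR6 to bind lipopeptides, TLR5 binds flagellin, and TLR4 with its partner LY96 (MD-2) binds lipopolysaccharide that CD14 hands over. TLR3 and TLR7 sit in endosomes and bind double-stranded and single-stranded RNA. In the liver, Kupffer cells, the resident macrophages, carry many of these receptors and meet gut-derived bacterial products arriving in portal blood, while hepatocytes secrete the lipopolysaccharide-binding protein that feeds CD14.

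*Usp39* itself was 9.58 ± 0.706 FPKM (SD, n = 4) in control and 8.44 ± 0.286 FPKM (n = 4) in knockout livers, with no overlap between the genotypes (log2 fold change −0.41, SE 0.11, adjusted p = 0.0212 in edgeR). These values count reads over the whole gene and not over the deleted exon. The 8 libraries held 8589636 to 10418450 counts, and 3 counts, taken as the detection floor, equalled 0.288 to 0.349 CPM (counts scaled to a common library total, without regard to length). The hepatocyte markers were abundant in every library, with *Alb* between 7170 and 9767 FPKM. The TMM scaling factors, which adjust the counts for differences in RNA composition, were 1.01 to 1.19 in *Usp39*-HKO mice, above the 0.912 to 0.940 of the controls. Scaling by total counts alone moved the median log2 fold change of all genes tested from −0.0015 to 0.23, so FPKM values, which lack the TMM factors, are shifted upwards in *Usp39*-HKO mice relative to the tested fold changes.

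Of the 10 genes, 3 rose in *Usp39*-HKO livers and none fell at an adjusted p under 0.05. The 3 were *Tlr7*, *Tlr1* and *Tlr4*, with folds of 2.18, 2.38 and 1.55. Over all genes tested, 10.9% were called higher, 11.6% lower and 22.5% in either direction. The fold change was positive for 9 of the 10 genes, against 49.9% of all genes tested, and their median log2 fold change was 0.42. *Tlr5* was the 1 gene with a negative value.

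In control livers the levels ran from *Cd14* at 11.3 FPKM to *Tlr6* at 0.410 FPKM. The order by mean FPKM was *Cd14*, *Myd88*, *Tlr5*, *Ly96*, *Tlr3*, *Tlr2*, *Tlr4*, *Tlr7*, *Tlr1* and *Tlr6*. The ranges over 4 mice were separate between neighbours at only 3 places, after *Myd88*, after *Tlr2* and after *Tlr1*. In *Usp39*-HKO livers *Tlr7* and *Tlr1* stood above *Tlr4* in the order, but the ranges of these neighbours overlapped. *Cd14* and *Myd88* led in both genotypes, and *Tlr6* was last in both.

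**Figure D1:**
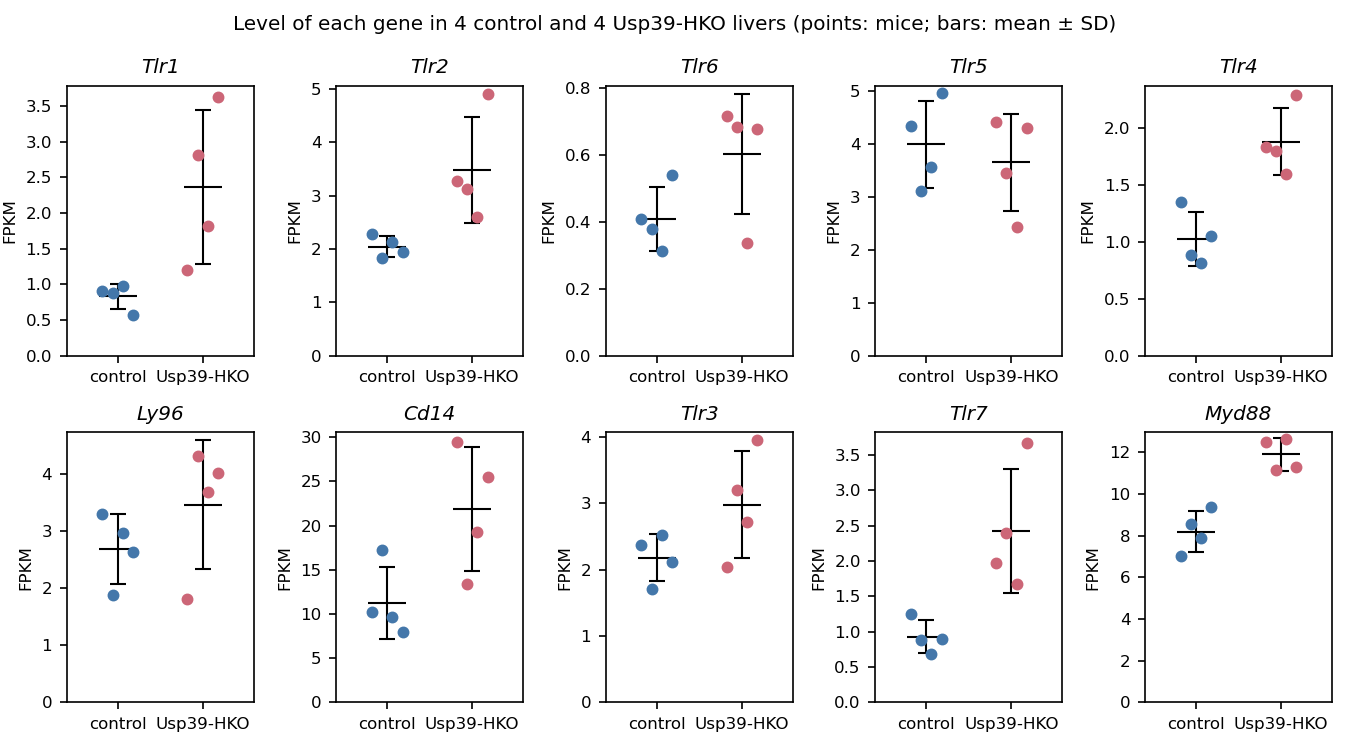
FPKM (y axes, each from 0) of each of the 10 genes in each mouse, with controls in blue, Usp39-HKO mice in red, and bars for the mean and SD of 4 mice. Every Usp39-HKO point lies above every control point for Tlr1, Tlr2, Tlr4, Tlr7 and Myd88, whereas the points of Tlr3, Tlr5, Tlr6, Cd14 and Ly96 overlap.

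Among the surface receptors for lipopeptides, *Tlr1* changed the most. *Tlr1* (ENSMUSG00000044827, chr5:64924679-64933563, minus strand, mm10) was measured at 0.911, 0.874, 0.974 and 0.574 FPKM in control mice A468, A472, A473 and A475. In *Usp39*-HKO mice A469, A470, A471 and A474 it was 1.20, 2.81, 1.82 and 3.63 FPKM. The genotypes did not overlap, although the spread among *Usp39*-HKO mice was wide, from A469, which was close to the controls, to A474. The means were 0.833 ± 0.178 (SD, n = 4) and 2.36 ± 1.07 FPKM (n = 4), and the log2 fold change was 1.25 (SE 0.31, adjusted p = 0.0146). The call was lost without control mouse A475 (adjusted p = 0.0503) and kept when any other single mouse was left out.

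*Tlr2* (ENSMUSG00000027995, chr3:83836272-83841767, minus strand), the shared partner of TLR1 and TLR6, missed the threshold. Control mice A468, A472, A473 and A475 had 2.28, 1.84, 2.12 and 1.94 FPKM. *Usp39*-HKO mice A469, A470, A471 and A474 had 3.28, 3.12, 2.61 and 4.90 FPKM. On FPKM the genotypes did not overlap (two-sided exact permutation p = 0.029, the smallest that 70 assignments allow), but on TMM-scaled CPM they did (exact permutation p = 0.057). The log2 fold change was 0.52 (SE 0.19, adjusted p = 0.0689), and it passed the threshold only without *Usp39*-HKO mouse A471 among the fits that left out a mouse (adjusted p = 0.0447).

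*Tlr6* (ENSMUSG00000051498, chr5:64952031-64960097, minus strand), the other partner of TLR2, was the least abundant of the 10 and rested on 10 to 26 counts per library. It stood at 0.409, 0.379, 0.312 and 0.541 FPKM in controls A468, A472, A473 and A475. The *Usp39*-HKO values for A469, A470, A471 and A474 were 0.718, 0.684, 0.337 and 0.679 FPKM. A471 fell among the controls, and the genotypes overlapped (log2 fold change 0.32, SE 0.30, adjusted p = 0.495).

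*Tlr1* and *Tlr6* lie beside each other on chromosome 5 and are near copies over part of their coding sequence. The longest stretch that both genes share without a mismatch is 229 bases, shown because read pairs that fall wholly within it cannot be told apart and because it joins a gene that rose to one that did not pass. It covers coding bases 1468 to 1696 of *Tlr1* (chr5:64925537-64925765) and 1507 to 1735 of *Tlr6* (chr5:64953828-64954056), in the coding exon of each, read from GRCm38 on the minus strand.
Tlr1 and Tlr6, shared coding stretch: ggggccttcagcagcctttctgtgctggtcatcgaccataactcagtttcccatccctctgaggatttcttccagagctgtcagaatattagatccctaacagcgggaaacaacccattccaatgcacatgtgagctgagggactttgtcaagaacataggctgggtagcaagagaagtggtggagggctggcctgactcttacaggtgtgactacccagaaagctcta
Of all 75-base words in the transcripts of *Tlr1*, 10.3% also occurred in *Tlr6*, and of those of *Tlr6*, 9.25% occurred in *Tlr1*. How the counting step treated reads with several matches is not given in the sources used here, so both values carry that uncertainty. *Tlr1* shared at most 0.333% of its words with any gene other than *Tlr6*, and the other 8 genes shared none with any gene. Words were compared on the transcript strand only, which leaves out the opposite-strand overlaps of *Tlr3* and *Myd88* given below.

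*Tlr5* (ENSMUSG00000079164, chr1:182954788-182976044, plus strand), the flagellin receptor, went the other way without passing the test. Its FPKM in controls A468, A472, A473 and A475 was 4.34, 3.12, 3.57 and 4.97. *Usp39*-HKO mice A469, A470, A471 and A474 had 4.43, 3.46, 2.43 and 4.29 FPKM. The ranges overlapped, and the log2 fold change was −0.37 (SE 0.20, adjusted p = 0.215). In control livers *Tlr5* was the most abundant of the 7 receptors, and in *Usp39*-HKO livers its mean, 3.65 FPKM, was next to that of *Tlr2*, 3.48 FPKM, with overlapping ranges.

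Within the lipopolysaccharide receptor complex, *Tlr4* rose, while *Cd14* and *Ly96* did not pass the test. *Tlr4* (ENSMUSG00000039005, chr4:66827584-66930284, plus strand) was 1.35, 0.890, 0.817 and 1.05 FPKM in controls A468, A472, A473 and A475. It was 1.83, 1.80, 1.60 and 2.30 FPKM in *Usp39*-HKO mice A469, A470, A471 and A474. The genotypes did not overlap on either scale (1.03 ± 0.238 against 1.88 ± 0.294 FPKM, SD, n = 4 each, exact permutation p = 0.029), and the log2 fold change was 0.63 (SE 0.19, adjusted p = 0.0327). The call was close to the threshold. It was lost when control A472, A473 or A475 was left out (adjusted p = 0.0678, 0.0992 and 0.0776) and when *Usp39*-HKO mouse A470 or A474 was left out (adjusted p = 0.0510 and 0.0872), with the fold change positive each time.

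*Cd14* (ENSMUSG00000051439, chr18:36725067-36726798, minus strand), which hands lipopolysaccharide to TLR4 and LY96, was the most abundant of the 10 genes. Controls A468, A472, A473 and A475 had 10.2, 17.2, 9.61 and 7.98 FPKM. *Usp39*-HKO mice A469, A470, A471 and A474 had 29.4, 13.4, 19.3 and 25.5 FPKM. The genotypes overlapped because control A472 stood above *Usp39*-HKO mouse A470. The means were 11.3 ± 4.06 and 21.9 ± 7.02 FPKM (SD, n = 4 each, exact permutation p = 0.057), and the log2 fold change of 0.73 (SE 0.27) had an adjusted p of 0.0773. Leaving out either of these mice brought *Cd14* past the threshold, with adjusted p = 0.0182 without A472 and 0.0278 without A470.

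*Ly96* (ENSMUSG00000025779, chr1:16688051-16709611, plus strand), the subunit of the complex that binds lipid A, had 3.31, 1.88, 2.96 and 2.63 FPKM in controls A468, A472, A473 and A475. It had 1.81, 4.32, 3.70 and 4.03 FPKM in *Usp39*-HKO mice A469, A470, A471 and A474. The lowest value of all belonged to a *Usp39*-HKO mouse, A469, whose *Cd14* was the highest of all. The log2 fold change was 0.12 (SE 0.28, adjusted p = 0.799), so the 3 genes of the complex had fitted values from 0.12 to 0.73.

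Of the endosomal receptors of RNA, *Tlr7* rose and *Tlr3* did not pass. *Tlr7* (ENSMUSG00000044583, chrX:167304929-167330558, minus strand) was 1.25, 0.890, 0.684 and 0.894 FPKM in controls A468, A472, A473 and A475. In *Usp39*-HKO mice A469, A470, A471 and A474 it was 1.97, 2.40, 1.67 and 3.67 FPKM. Every *Usp39*-HKO mouse exceeded every control on both scales. The means were 0.930 ± 0.237 and 2.43 ± 0.882 FPKM (SD, n = 4 each, exact permutation p = 0.029), with a log2 fold change of 1.13 (SE 0.25, adjusted p = 0.00930). *Tlr7* was called in all 18 alternative fits, with adjusted p between 0.000494 and 0.0337.

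*Tlr3* (ENSMUSG00000031639, chr8:45395665-45411080, minus strand) signals through the adaptor TICAM1 and not through MYD88. Its levels were 2.36, 1.70, 2.53 and 2.12 FPKM in controls A468, A472, A473 and A475. They were 2.04, 3.20, 2.72 and 3.95 FPKM in *Usp39*-HKO mice A469, A470, A471 and A474. Mouse A469 lay below 3 of the 4 controls, and the log2 fold change was 0.20 (SE 0.18, adjusted p = 0.464). An antisense gene, *Gm45542*, covers 7.32% of the exon bases of *Tlr3*, and since the strand setting of the counting is not given in the sources used here, reads of the 2 genes cannot be told apart there.

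*Myd88* (ENSMUSG00000032508, chr9:119335934-119341411, minus strand), the shared adaptor, came after *Cd14* in level in both genotypes. Controls A468, A472, A473 and A475 had 7.02, 8.54, 7.86 and 9.35 FPKM. *Usp39*-HKO mice A469, A470, A471 and A474 had 12.5, 11.2, 12.6 and 11.3 FPKM. On FPKM the genotypes did not overlap (8.19 ± 0.992 against 11.9 ± 0.770, SD, n = 4 each, exact permutation p = 0.029), whereas on TMM-scaled CPM control A475 stood above *Usp39*-HKO mouse A474 (exact permutation p = 0.057). The log2 fold change with TMM scaling was 0.31 (SE 0.13, adjusted p = 0.102). Of its exon bases, 290 (11.3%) overlap *Acaa1a*, a peroxisomal thiolase gene on the opposite strand. *Acaa1a* had 100.6 ± 17.1 FPKM in control and 86.8 ± 17.5 FPKM in *Usp39*-HKO livers (SD, n = 4 each). Its log2 fold change in edgeR was −0.43 (SE 0.19, adjusted p = 0.118). Since the strand setting of the counting is not given, reads of the 2 genes cannot be told apart there. The level and fold change of *Myd88* carry that uncertainty.

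Counting genes without overlap of the genotypes gave 5 of the 10 on FPKM, against 23.9% of all genes tested, and 3 of the 10 on TMM-scaled CPM, against 11.9%. By the cutoff used in the study (log2 fold change over 0.5 at an unadjusted p under 0.05) 5 genes were higher, *Tlr1*, *Tlr2*, *Tlr4*, *Tlr7* and *Cd14*, against 12.1% of all genes. DESeq2 called 4 higher (*Cd14* added) against 11.8% of all genes. With total counts alone, or with limma on log2(FPKM + 1) or log2(FPKM + 0.1), 6 were called higher (*Tlr2*, *Cd14* and *Myd88* added), and the share of all genes called higher rose as well, to 24.5%, 21.1% and 21.3%.

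**Figure D2:**
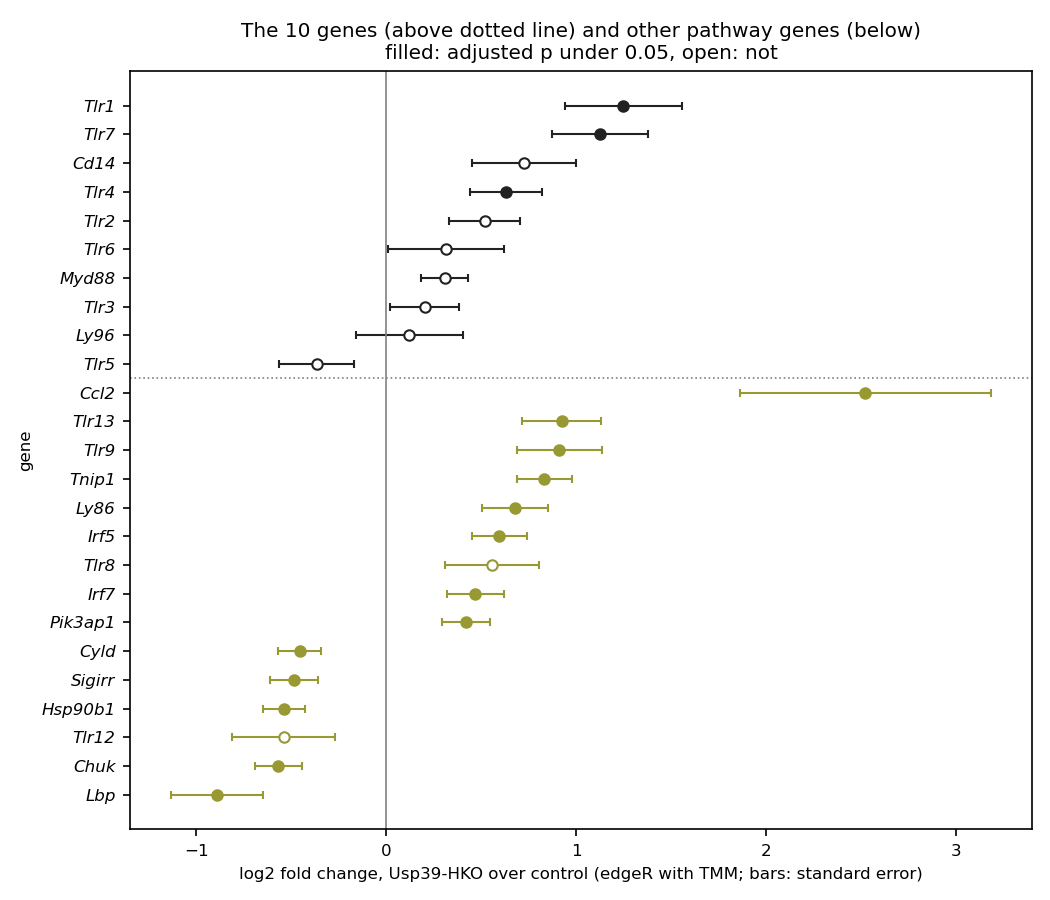
Log2 fold changes (x axis), Usp39-HKO over control, from edgeR on TMM-scaled counts of 4 mice per genotype, for the 10 genes above the dotted line and for other Toll-like receptors and called pathway genes below it, with bars of 1 SE and filled points past an adjusted p of 0.05. Of the 10, Tlr1 at 1.25, Tlr7 at 1.13 and Tlr4 at 0.63 are filled, and Tlr5 is the gene below 0.

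The fold change of *Tlr7* passed in every alternative fit, that of *Tlr1* in 17 of 18 and that of *Tlr4* in 13 of 18. *Cd14* passed in 7, *Tlr2* in 5 and *Myd88* in 3 of the 18. *Tlr3*, *Tlr5*, *Tlr6* and *Ly96* passed in none.

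**Figure D3:**
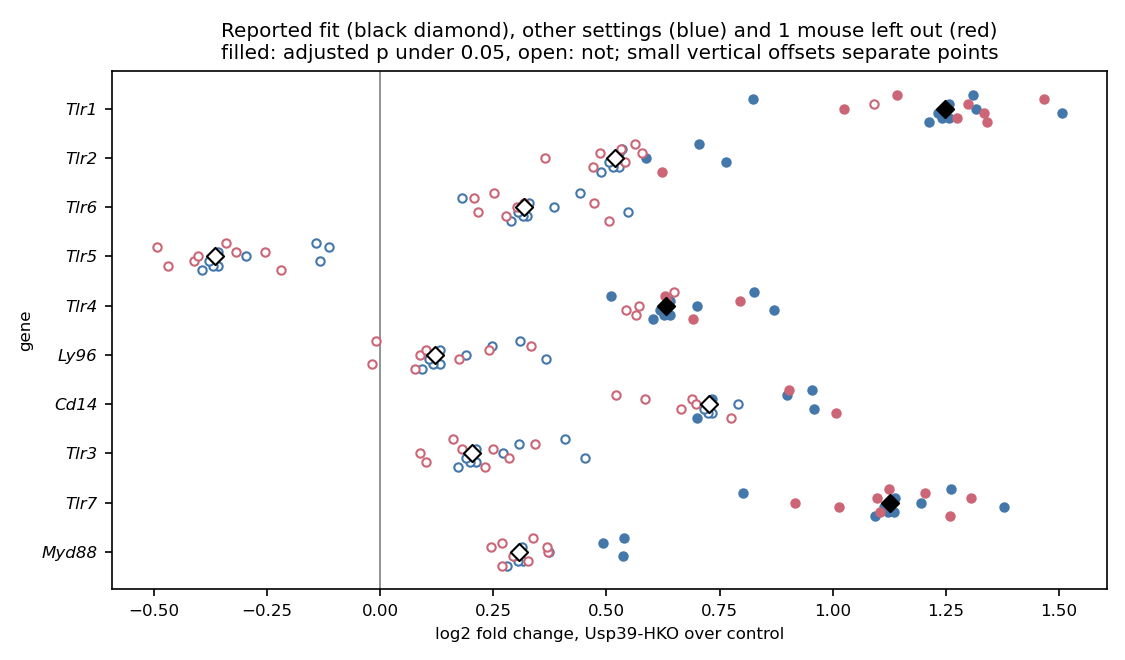
Log2 fold change (x axis) of each of the 10 genes in the reported edgeR fit (black diamond), in 10 fits with other settings (blue) and in 8 that left out a mouse (red), filled where the adjusted p was under 0.05. All 18 fits of Tlr7 pass, all fits of Tlr5 lie below 0, and those of Ly96 fall on both sides of 0.

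The mice of a genotype did not keep 1 order over the genes. On FPKM, among *Usp39*-HKO mice A474 was highest for 5 of the 10 genes and lowest for none, A471 was lowest for 5, and A469 was highest for 3, *Cd14* among them. On TMM-scaled CPM, A474 was the lowest of these mice for *Myd88*, at 24.6 CPM. Over the 45 pairs of genes, the correlation of deviations from the genotype means was positive in 27, with a median of 0.0920, and ran from −0.877 for *Tlr1* and *Myd88* to 0.875 for *Tlr3* and *Ly96* (Pearson, n = 8 mice, all from the same libraries). The genes whose deviations followed those of *Cd14* most closely were *Rnf166*, *Prkd2* and *Zfp111* (r = 0.978, 0.975 and 0.974). For *Tlr4* they were *8030462N17Rik*, an entry with no symbol and *S100a6* (r = 0.977, 0.976 and 0.966). These are the highest of 14340 values over 8 mice that share depth and scaling, and are given as a description.

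Promoter sequence was found for 6 of the 10 genes in the RefSeq windows of 250 bases before to 50 bases after each start on GRCm38.p6, and *Tlr4*, *Tlr7*, *Cd14* and *Ly96* had no entry. The windows of *Tlr1* and *Myd88* are shown because these genes differ in both level and fold change and each holds a match to a motif of factors active in macrophages or in Toll-like receptor signalling, a choice made after the matches were seen. The searched motifs, on both strands, were the ETS core GAGGAA, the AP-1 site TGANTCA, the kappa-B site GGANTTTCC and the IRF site GAAANNGAA, present in 28.3%, 7.81%, 1.25% and 8.56% of all 32851 windows of 300 bases. Matches are in capitals.
Tlr1 promoter, chr5:64933509-64933808, minus strand: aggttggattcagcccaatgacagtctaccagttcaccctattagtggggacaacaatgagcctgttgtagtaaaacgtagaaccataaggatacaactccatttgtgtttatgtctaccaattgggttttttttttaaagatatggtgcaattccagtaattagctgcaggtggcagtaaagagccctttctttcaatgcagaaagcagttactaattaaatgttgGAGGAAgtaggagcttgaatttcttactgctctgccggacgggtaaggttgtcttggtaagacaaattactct
Myd88 promoter, chr9:119339969-119340268, minus strand: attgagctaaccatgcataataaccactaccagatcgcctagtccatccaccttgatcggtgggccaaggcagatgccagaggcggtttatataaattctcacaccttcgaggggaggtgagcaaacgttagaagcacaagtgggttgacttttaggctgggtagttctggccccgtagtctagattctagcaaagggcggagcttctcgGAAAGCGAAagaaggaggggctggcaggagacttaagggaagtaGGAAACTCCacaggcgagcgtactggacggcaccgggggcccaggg
The *Tlr1* window holds 1 ETS core, 23 bases before the start. The *Myd88* window holds an IRF site, 40 bases before the start, and a kappa-B site read from the other strand, 5 bases after it, and these do not overlap. That window lies wholly inside the interval given above for *Myd88*, so its RefSeq start is not the outermost end of the gene as annotated. *Tlr3* had 1 kappa-B match, *Tlr6* had 2 overlapping IRF matches in 1 of its 2 windows, and the windows of *Tlr2* and *Tlr5*, the other window of *Tlr1* and the other window of *Tlr6* had no match. These are letters in a window and not sites shown to be bound.

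Of the 5 other Toll-like receptors in the table, 2 rose, both endosomal receptors of nucleic acids. *Tlr13*, which binds bacterial ribosomal RNA in mice, rose from 1.45 ± 0.146 to 3.28 ± 1.22 FPKM (SD, n = 4 each, log2 fold change 0.92, SE 0.21, adjusted p = 0.00978). *Tlr9*, the receptor of unmethylated CpG DNA, rose from 0.489 ± 0.0673 to 1.09 ± 0.183 FPKM (log2 fold change 0.91, SE 0.22, adjusted p = 0.0144). Controls A473 and A475, at 0.435 and 0.442 FPKM, were under the filter of 0.5 FPKM for *Tlr9*. *Tlr8* had 1.39 ± 0.297 and 2.45 ± 0.902 FPKM and did not pass (log2 fold change 0.56, SE 0.25, adjusted p = 0.130). *Tlr12*, a profilin receptor, was the most abundant receptor of the family at 15.9 ± 4.60 FPKM in control and 12.8 ± 5.13 FPKM in *Usp39*-HKO livers, with a negative fold change like that of *Tlr5* (−0.54, SE 0.27, adjusted p = 0.183). *Tlr11* was too low to be tested, at 0.233 and 0.249 FPKM. Of the 12 receptor genes, 11 were tested, 5 were higher and none was lower, against 10.9% and 11.6% of all genes tested.

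**Figure D4:**
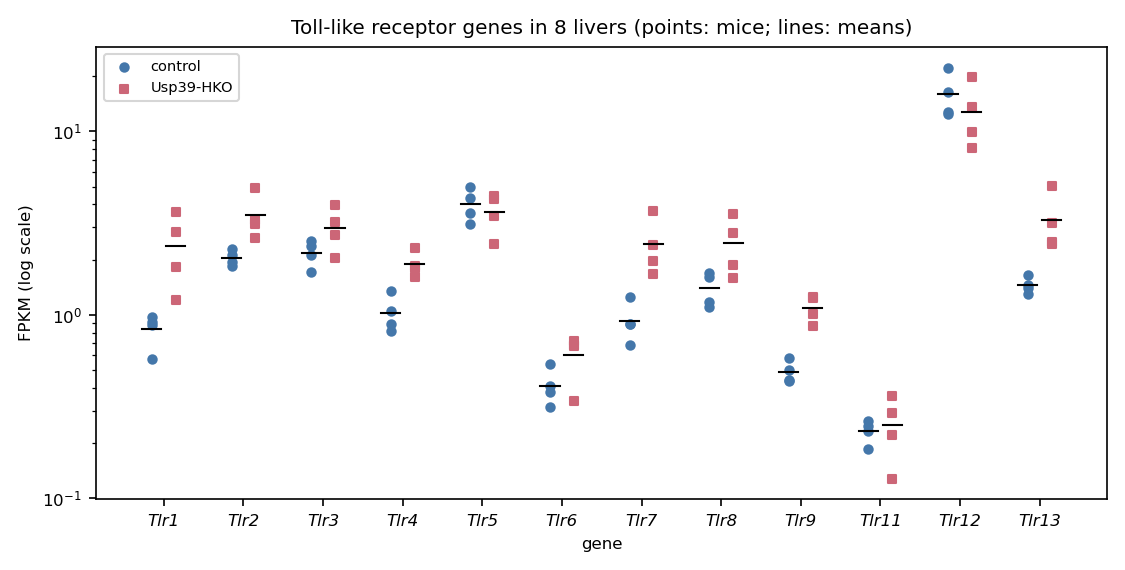
FPKM (log axis) of the 12 Toll-like receptor genes, with 4 control mice as circles, 4 Usp39-HKO mice as squares and the group means as lines. Tlr12 and Tlr5 are the most abundant in controls, and Tlr1, Tlr4, Tlr7, Tlr9 and Tlr13 are the 5 called higher.

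Beyond the 10, 73 genes of the pathway were listed and 60 were tested, of which 8 were higher, 5 lower and 47 not called. These shares, set beside 10.9% and 11.6% of all genes, are near the background, and the median log2 fold change was 0.062. With total counts alone in place of TMM the split was 18 higher and 1 lower. The changes in ligand delivery and receptor folding went in both directions. *Lbp*, the secreted protein that carries lipopolysaccharide to CD14, fell from 67.9 ± 8.61 to 42.5 ± 16.5 FPKM (SD, n = 4 each, log2 fold change −0.89, SE 0.24, adjusted p = 0.0223), although *Usp39*-HKO mouse A469, at 66.9 FPKM, lay within the controls. *Hsp90b1*, the chaperone gp96 that folds Toll-like receptors, fell from 110.8 to 89.9 FPKM (log2 fold change −0.54, SE 0.11, adjusted p = 0.00624). *Ly86*, a relative of *Ly96* whose product pairs with the receptor CD180, rose from 1.97 to 3.75 FPKM (log2 fold change 0.68, SE 0.17, adjusted p = 0.0177).

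Downstream of the receptors the calls went both ways, and the shares are to be read against the 10.9% of all genes called higher and 11.6% called lower. Of 19 kinases and ubiquitin ligases tested, none rose, and *Chuk*, which encodes IKK-alpha, fell from 37.3 to 29.7 FPKM (log2 fold change −0.57, adjusted p = 0.00872). Among 3 other TIR adaptors tested, *Pik3ap1*, which links the receptors to PI3K, rose from 20.1 to 31.6 FPKM (log2 fold change 0.42, adjusted p = 0.0360). Of 8 transcription factors tested, *Irf5* rose from 4.17 to 7.48 FPKM and *Irf7* from 6.62 to 10.8 FPKM (log2 fold changes 0.60 and 0.47, adjusted p = 0.0137 and 0.0454), and both act downstream of MYD88.

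The inhibitors also went both ways. Of 10 tested, *Tnip1*, which restrains NF-kappa-B with the deubiquitinase A20, rose from 4.33 to 9.13 FPKM (log2 fold change 0.83, adjusted p = 0.00291). *Sigirr*, an inhibitory relative of the IL-1 receptor, and the deubiquitinase *Cyld* fell, from 6.11 to 5.14 and from 3.07 to 2.64 FPKM (log2 fold changes −0.48 and −0.45, adjusted p = 0.0188 and 0.0156). Of 16 cytokine and enzyme targets, 8 were tested and 1, the monocyte chemoattractant *Ccl2*, rose. *Ccl2* had 0.670, 0.177, 0 and 0.0843 FPKM in controls A468, A472, A473 and A475 and 0.814, 1.21, 2.67 and 1.85 FPKM in *Usp39*-HKO mice A469, A470, A471 and A474 (log2 fold change 2.52, SE 0.66, adjusted p = 0.0192, 82 counts in all 8 libraries). Of the controls only A468 reached the 0.5 FPKM of the filter, so *Ccl2* entered the test through its *Usp39*-HKO values. Of the 7 targets tested and not called, *Il1b* and *Il1a* held 1249 and 1176 counts in all 8 libraries. Their log2 fold changes were −0.10 and 0.24 (adjusted p = 0.773 and 0.299 in edgeR). The classical targets *Tnf* and *Il6* had 19 and 16 counts in all 8 libraries and *Ifnb1* had 0, too few to test.

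Most macrophage markers tested were also higher in *Usp39*-HKO livers. Against 10.9% of all genes called higher, 7 of 9 Kupffer cell markers were higher (*Clec4f*, *Vsig4*, *Cd5l*, *Marco*, *C1qa*, *C1qb* and *C1qc*), and their summed level was 417.5 to 594.1 FPKM in control and 782.3 to 1114 FPKM in *Usp39*-HKO livers, without overlap and 1.92 times higher on average. Of 9 monocyte and recruited macrophage markers 6 were tested and 5 were higher (*Ccr2*, *Cx3cr1*, *Cd68*, *Csf1r* and *Lyz2*), with sums of 88.2 to 125.6 and 147.5 to 275.7 FPKM. *Cx3cr1* was under the 0.5 FPKM of the filter in every control, at 0.149 to 0.387 FPKM. *Ccr2* was under it in controls A468, A472 and A473, at 0.354, 0.448 and 0.413 FPKM. Both genes entered the test through their *Usp39*-HKO values. No listed marker was at 0 in all mice. The 5 neutrophil markers tested gave no call and their sums overlapped, and 4 of 5 stellate cell and all 3 cholangiocyte markers tested were higher. Of 6 sinusoidal endothelial and 6 hepatocyte markers 2 each were lower, against 11.6% of all genes. The markers tested of B cells (3), of T and NK cells (4) and of dendritic cells (2) gave no call. The summed FPKM of the dendritic cell list did not overlap, at 1.38 to 2.88 in control and 3.01 to 5.06 in *Usp39*-HKO livers (1.93 times). Nor did that of the T and NK cell list, at 3.43 to 4.55 and 5.08 to 6.50 FPKM (1.43 times). FPKM lacks the TMM factors, and on it 23.9% of all genes tested were higher without overlap. No test is given for any of the marker sums. In whole liver, more cells of a type and more RNA per cell cannot be told apart, and the part of these cells in the receptor changes was not tested.

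Expressed per 100 FPKM of the summed Kupffer cell markers, a measure added after the data were seen, none of the 10 genes was higher in *Usp39*-HKO mice without overlap. The divisor itself was 1.92 times higher in *Usp39*-HKO mice, so this scaling lowers every gene: the median ratio of *Usp39*-HKO to control means over the genes tested was 0.607, and 1.65% of them were higher and 48.6% lower without overlap. The values describe the genes beside the markers and do not test whether one follows the other. *Tlr4* had 0.222 ± 0.0701 in control and 0.206 ± 0.0201 in *Usp39*-HKO livers (SD, n = 4 each, exact permutation p = 0.771), and *Cd14* had 2.33 ± 0.480 and 2.38 ± 0.687 (exact permutation p = 1.0). *Tlr1* and *Tlr7* had ratios of *Usp39*-HKO to control means of 1.43 and 1.31, with overlapping groups (exact permutation p = 0.286 and 0.2). *Tlr5* and *Myd88* had ratios of 0.463 and 0.757, below and above the median ratio of all genes, and their groups did not overlap (exact permutation p = 0.029 each), as for 48.6% of all genes. The other 4 genes had ratios between 0.650 and 0.851 and overlapped.

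**Figure D5:**
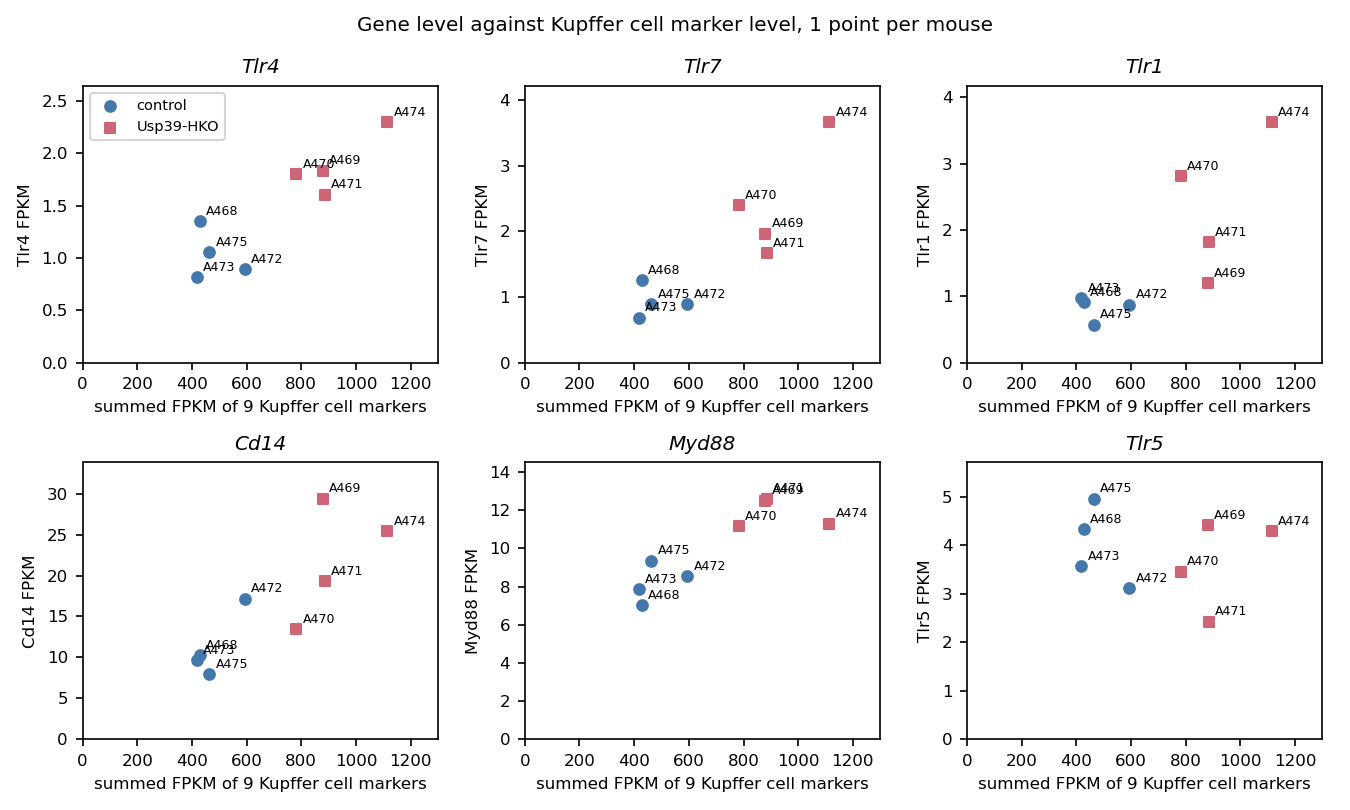
FPKM of Tlr4, Tlr7, Tlr1, Cd14, Myd88 and Tlr5 (y axes) against the summed FPKM of 9 Kupffer cell markers (x axes), 1 labelled point per mouse, circles for 4 controls and squares for 4 Usp39-HKO mice. The marker sums of the genotypes do not overlap (417.5 to 594.1 and 782.3 to 1114 FPKM), A474 has the highest sum together with the highest Tlr1, Tlr4 and Tlr7, and Tlr5 spans 2.43 to 4.97 FPKM with both genotypes overlapping.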

How the data were processed

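Liver RNA of 4 control and 4 *Usp39*-HKO mice was sequenced in 1 library per mouse. Reads were trimmed with Trim Galore, aligned to mm10 with HISAT2 and counted with featureCounts, and the annotation release, strand and multi-mapping settings are not given in the sources used here. The authors deposited raw counts, exon lengths and FPKM per gene, and the FPKM were recomputed from counts, length and total to within 1.96e-07. The deposited columns of the authors' own DESeq2 comparison (mean signal, log2 fold change, scores, p-values) were not used.

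Counts were tested in edgeR 4.0.16 (quasi-likelihood, TMM, Benjamini-Hochberg over 14340 genes with FPKM of at least 0.5 in at least 4 mice). The fit was also run on simulated counts with known changes. These had no difference in RNA composition between the genotypes, so that run does not bear on the choice of scaling. The alternatives were other scalings, filters, DESeq2 1.42.0, limma 3.58.1, the study's cutoff and each mouse left out. Single FPKM values were compared by two-sided exact permutation over 70 assignments, with each mouse taken as a separate animal. Groups came from the labels and no batch was named. Of 55699 entries, 314 repeated a gene identifier. Chi-square per degree of freedom was 6.40 to 32.9 between mice of a genotype, so no pair of mice within a genotype looked like a library deposited again.

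Sequences came from the GRCm38 genome and RefSeq promoter windows. Every gene of the 10 is named. Of the other pathway genes those with an adjusted p under 0.05, all Toll-like receptors and a few other targets are named. The Kupffer cell and monocyte markers tested are named too, with the 3 genes most like *Cd14* and *Tlr4* in deviations from the genotype means. The genes and lists were chosen with earlier results of these data known.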

Additional observations from a re-analysis of the deposited data

Results flagged for a closer look

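The FPKM of *Tlr6* in *Usp39*-HKO mouse A471 was 0.337, while the other 3 *Usp39*-HKO mice lay between 0.679 and 0.718. The gap to its nearest neighbour was 0.899 of the range of the group, which is past the critical value of Dixon's test at the 95% level for 4 samples. It rested on 12 counts. Each of the 10 genes was examined in both genotypes, 20 groups in all, and chance marks about 1 in 20 groups.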

How the results depend on the processing

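The count of 3 genes called higher became 6 with total counts alone, 6 with limma on log2(FPKM + 1), 6 with limma on log2(FPKM + 0.1) and 5 with the study's cutoff, and ranged from 1 to 4 when a mouse was left out. The lowest count, 1, came without control A475, where *Tlr7* remained. None of the 10 was called lower under any setting. Of the other pathway genes, 8 called higher became 18 with total counts alone and 16 with each limma fit, and 4 to 9 when a mouse was left out, with 4 without control A473. The 5 called lower became 1 with total counts alone, 1 with each limma fit and 3 with the study's cutoff, and 2 to 7 when a mouse was left out, with 2 without control A473 and 3 without *Usp39*-HKO mouse A471 or A474. The cause was not tested.

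The fold change of *Ly96* turned negative without *Usp39*-HKO mouse A470 (-0.0085) and without control A472 (-0.019), with leave-one-out values up to 0.33. The difference in mean FPKM of *Tlr5*, -0.35, became 0.060 without *Usp39*-HKO mouse A471, with a lowest value of -0.64. Per 100 FPKM of summed Kupffer cell markers, a setting chosen after seeing the data whose divisor is 1.92 times higher in *Usp39*-HKO mice and so turns any smaller rise negative, the differences became -0.066 for *Tlr2*, -0.15 for *Tlr3*, -0.016 for *Tlr4*, -0.021 for *Tlr6*, -0.21 for *Ly96* and -0.42 for *Myd88*. No paired analysis was possible because the labels carry no number shared between the genotypes. *Tlr6* had 10 to 26 counts per library, the fewest of the 10 genes.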
